A study of Mus musculus with 12 samples.

Results

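The genes described here are 10 plasma membrane amino acid transporters of the renal tubule and the heavy chains that carry them: Slc3a1, Slc7a9, Slc7a13, Slc6a18, Slc6a19, Slc1a1, Slc3a2, Slc7a7, Slc7a8 and Slc7a12. They were chosen by name and found by gene symbol, as 10 of 23238 symbols measured. All 10 were among the 13943 tested genes, the upper 60% of symbols by mean log2 value over all libraries. Transcripts were measured in kidney of C57BL/6 mice by QuantSeq, which sequences the 3′ ends of polyadenylated RNA, in 12 libraries. The groups were CKD TRF (chronic kidney disease with time restricted feeding, in which food is offered for part of the day), CKD (the disease without restricted feeding) and Control, with 4 libraries each. The labels give the strain and the tissue for every group. The way the disease was induced, the age and sex of the mice, the feeding hours, the hour of sampling and whether libraries stem from separate animals were not given in the sources used here. All p-values therefore measure the spread between libraries, which may be in part technical.

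The libraries held 14145861 to 17209942 reads in CKD TRF, 14512463 to 16857895 in CKD and 10989788 to 12810807 in Control, as recovered from the values. Levels are given as scaled reads, the authors' normalised read numbers, and library values run in the order of library number 1 to 4. A gene with no read could hold up to 3 reads by counting error, worth 0.168 to 0.306 scaled reads, and no other error is covered by that limit. The scaled reads of a library summed to 987841 to 1025834 in CKD TRF, 941189 to 978419 in CKD and 1076773 to 1180101 in Control, without overlap between the groups. Changes are differences of mean log2(scaled reads + 1) with the SE from limma (n = 4 per group), and they understate the change of low genes. On this scale Control 2 stood apart from the other libraries on the second principal component (8.07% of the variance). A set of 4 genes largely restricted to fat cells (Adipoq, Plin1, Cidec and Cfd) summed to over 20 scaled reads in CKD TRF 1, 3 and 4 and in CKD 2 and 4. They summed to 0.398 in CKD TRF 2, 11.1 in CKD 1, 3.60 in CKD 3 and at most 1.29 in Control.

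The proximal tubule takes back nearly all filtered amino acids. Transporters of the brush border carry them into the cell, and exchangers of the basolateral membrane pass them on to the blood. Many of these transporters work as pairs, in which a heavy chain of the SLC3 family brings a light chain of the SLC7 family to the membrane. Slc3a1 encodes the brush border heavy chain and Slc7a9 the light chain that exchanges cystine and cationic amino acids, and human mutations in either gene cause cystinuria. Slc3a2 encodes the basolateral heavy chain, whose light chains Slc7a7 and Slc7a8 release cationic and neutral amino acids, and human SLC7A7 is the gene of lysinuric protein intolerance. Slc6a19 encodes the main sodium-coupled carrier of neutral amino acids, mutated in human Hartnup disorder, and Slc6a18 a related carrier. Slc1a1 encodes a carrier of glutamate and aspartate.

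Windows around the transcription starts are printed for the genes that held a match to a motif of HNF4 or ATF4, since the transcript of Hnf4a, a factor of proximal tubule identity, changed in these kidneys and ATF4 is the factor of the response to amino acid shortage. RefSeq windows of 300 bases (250 before and 50 after the annotated start, build GRCm38.p6) were found for 7 of the 10 genes, 12 windows in all. Motifs were searched on both strands as CAAAGTCCA for HNF4 and TGATGNAA for ATF4. No motif overlapped another in the windows shown. Sequences run 5′ to 3′ on the gene's strand with the match in capitals, from chr17:85028097-85028396 (plus strand) for Slc3a1 and chr14:54417895-54418194 (minus) for the Slc7a7 window with most matches.
Slc3a1: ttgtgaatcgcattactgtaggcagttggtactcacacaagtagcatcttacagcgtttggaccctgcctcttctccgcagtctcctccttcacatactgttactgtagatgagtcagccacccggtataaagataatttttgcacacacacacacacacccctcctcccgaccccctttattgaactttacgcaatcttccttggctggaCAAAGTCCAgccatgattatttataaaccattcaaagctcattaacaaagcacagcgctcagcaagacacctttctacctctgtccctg
Slc7a7: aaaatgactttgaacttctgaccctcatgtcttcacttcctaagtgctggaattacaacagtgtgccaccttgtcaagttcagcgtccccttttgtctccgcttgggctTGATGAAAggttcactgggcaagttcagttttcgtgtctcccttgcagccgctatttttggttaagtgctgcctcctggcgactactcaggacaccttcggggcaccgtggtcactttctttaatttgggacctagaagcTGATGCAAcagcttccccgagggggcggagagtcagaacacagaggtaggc

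The HNF4 motif stood in the Slc3a1 window alone among these genes, at bases 212 to 220, and 0.475% of all 32851 mouse windows held it. The ATF4 motif occurred at bases 110 to 117 and 250 to 257 of the printed Slc7a7 window. It also stood in another, overlapping Slc7a7 window, and 3.97% of all windows held it. The windows of Slc1a1, Slc3a2, Slc6a19, Slc7a8 and Slc7a9 held neither motif. The Slc3a2 window (chr19:8713848-8714147) and the Slc6a19 window (chr13:73692587-73692886) lie inside these genes. Both genes are on the minus strand and start in GENCODE at 8723369 and 73704865, and those starts were not searched. Matches describe the sequence and were not tested as binding sites. Slc6a18, Slc7a12 and Slc7a13 had no window in the table.

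Setting CKD beside Control showed which of these transcripts changed with the disease. The brush border genes of cystine, neutral and acidic amino acid uptake were lower in CKD, as was the basolateral heavy chain, while Slc7a12 was higher. Slc7a8 and Slc7a9 turned positive when libraries were centred on proximal tubule markers, and the CKD calls of Slc6a18, Slc1a1 and Slc3a2 were lost. On that scale 3 of the 10 genes passed as lower in CKD and 2 as higher, beside 371 and 8913 of the 13943 tested genes. Reads counted for Slc3a1, 1 of those still lower, may belong in part to the overlapping gene Prepl. Of the 10 genes, 8 fell and 1 rose in CKD (limma, adjusted p under 0.05 over all tested genes), against 21.8% of tested genes that fell and 23.6% that rose. In CKD TRF against Control, 7 fell and 0 rose, against 17.9% and 19.5% of tested genes. Between CKD TRF and CKD, 0 of the 10 and 0 of 13943 tested genes passed in limma, and 0 genes with voom on recovered reads (0% of tested genes). At an unadjusted p under 0.05 this comparison held 4 of the 10, all higher in CKD TRF, against 3.42% of tested genes higher at that level and 6.38% in either direction. Without the 5 libraries with over 20 scaled reads of the 4 fat genes, 7 of the 10 fell and 1 rose in CKD. Of the 13943 tested genes, 1940 fell and 2097 rose there. That fit left 1 CKD TRF library, which was assumed to vary like the others. Both comparisons with Control share the 4 Control libraries.

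The median change over the 10 genes was -0.63 in CKD against Control, 0.08 in CKD TRF against CKD and -0.36 in CKD TRF against Control, beside 0.02, -0.01 and 0.01 over all tested genes. Without overlap between groups, 7 of the 10 were lower and 1 was higher in CKD than in Control, against 19.2% and 20.3% of tested genes. In CKD TRF, 5 were lower than in Control without overlap, against 15.6% of tested genes, and none was higher (16.3%). None of the 10 parted CKD TRF from CKD (4.5% of tested genes did). In whole kidney RNA, fewer tubule cells and less RNA per cell cannot be told apart. The plot of values by library shows each gene, and the plot of changes shows the intervals.

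**Figure D1:**
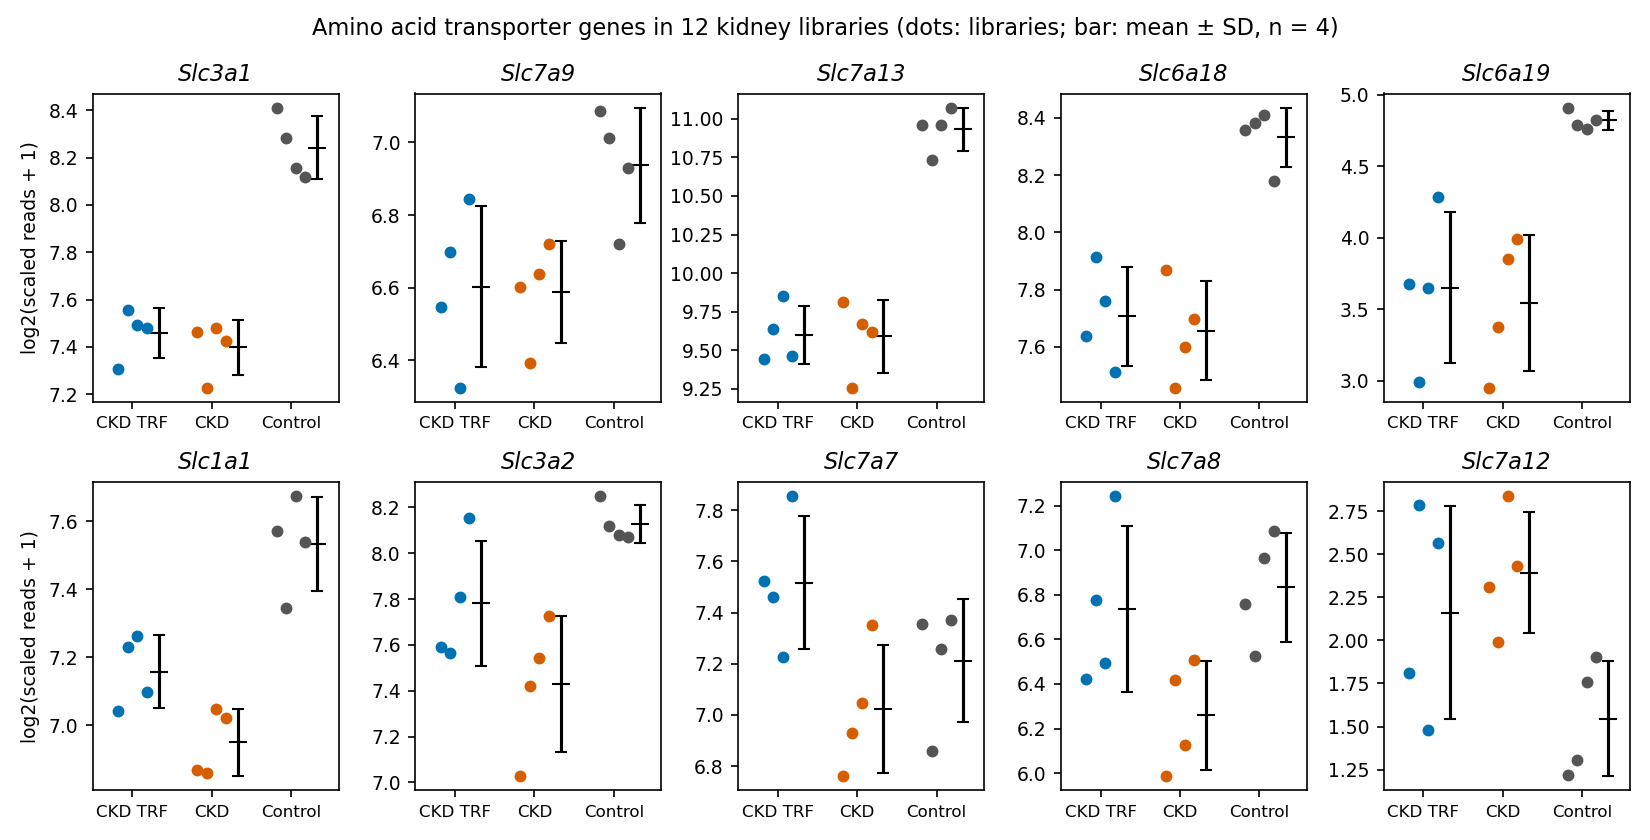
Levels of the 10 transporter genes as log2(scaled reads + 1) in each library, with CKD TRF, CKD and Control from left to right, a dot per library in number order and the mean ± SD (n = 4) beside the dots; each panel has its own axis, which does not start at 0. The diseased libraries of Slc3a1, Slc7a13, Slc6a18, Slc6a19 and Slc1a1 lie below all Control libraries, those of Slc7a12 lie higher in CKD, and CKD TRF and CKD overlap in every panel.

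**Figure D2:**
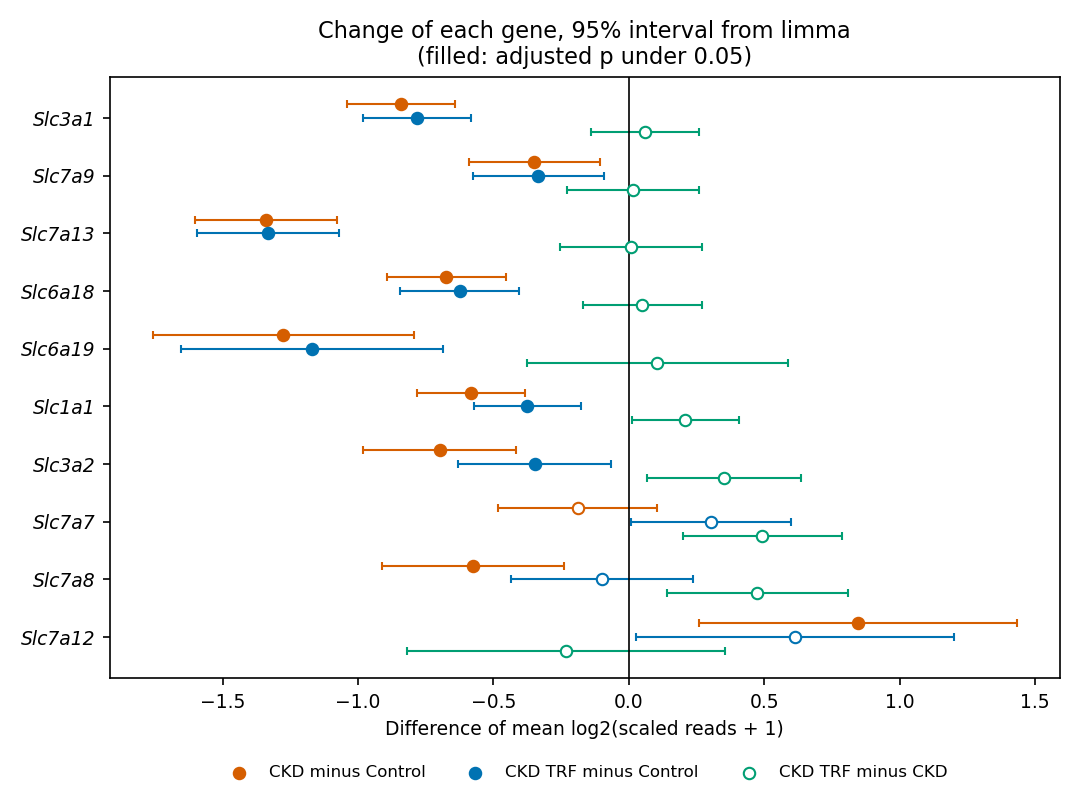
Change of each gene on the log2(scaled reads + 1) scale with its 95% interval from limma (n = 4 per group), for CKD minus Control, CKD TRF minus Control and CKD TRF minus CKD; filled points have an adjusted p under 0.05. Of the 10 genes, 9 are filled for CKD minus Control, 7 for CKD TRF minus Control and 0 for CKD TRF minus CKD.

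Slc3a1, the heavy chain of the brush border exchangers (chr17:85028376-85064236, plus strand, build GRCm38, GENCODE annotation as for the positions that follow), was found at 157, 187, 179 and 178 scaled reads in CKD TRF libraries, 176, 149, 177 and 171 in CKD and 339.6, 310.3, 284 and 277 in Control. All 8 diseased libraries lay below all 4 Control libraries, and the diseased groups overlapped. Slc3a1 fell by 0.84 ± 0.10 in CKD (limma adjusted p = 8.5e-07) and by 0.78 ± 0.10 in CKD TRF (limma adjusted p = 3.3e-06). Both calls held under all 24 alternatives.

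The reads behind Slc3a1 may not all be its own. Its last exon (chr17:85063636-85064236, holding the 3′ end that QuantSeq reads) lies wholly within an exon of Prepl, a serine hydrolase gene on the opposite strand (chr17:85063470-85090241). Prepl had 2387, 2988, 3309 and 2968 reads in CKD TRF, 2947, 2918, 3365 and 2794 in CKD and 3487, 3531, 3613 and 3256 in Control. Slc3a1 had 2198, 2822, 3008 and 2706 reads in CKD TRF, 2709, 2658, 3057 and 2606 in CKD and 3326, 3368, 3343 and 3031 in Control. The Slc3a1 number was thus 90.8% to 95.4% of the Prepl number in every library, short of it by 161 to 308 reads. Prepl fell by 0.81 ± 0.09 in CKD and by 0.75 ± 0.09 in CKD TRF against Control (limma adjusted p = 1.0e-06 and 3.8e-06 in that order). Whether counting used the strand is not given in the sources used here, and without strand reads of both genes cannot be told apart. The change called Slc3a1 here may therefore belong to either gene or to both.

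**Figure D3:**
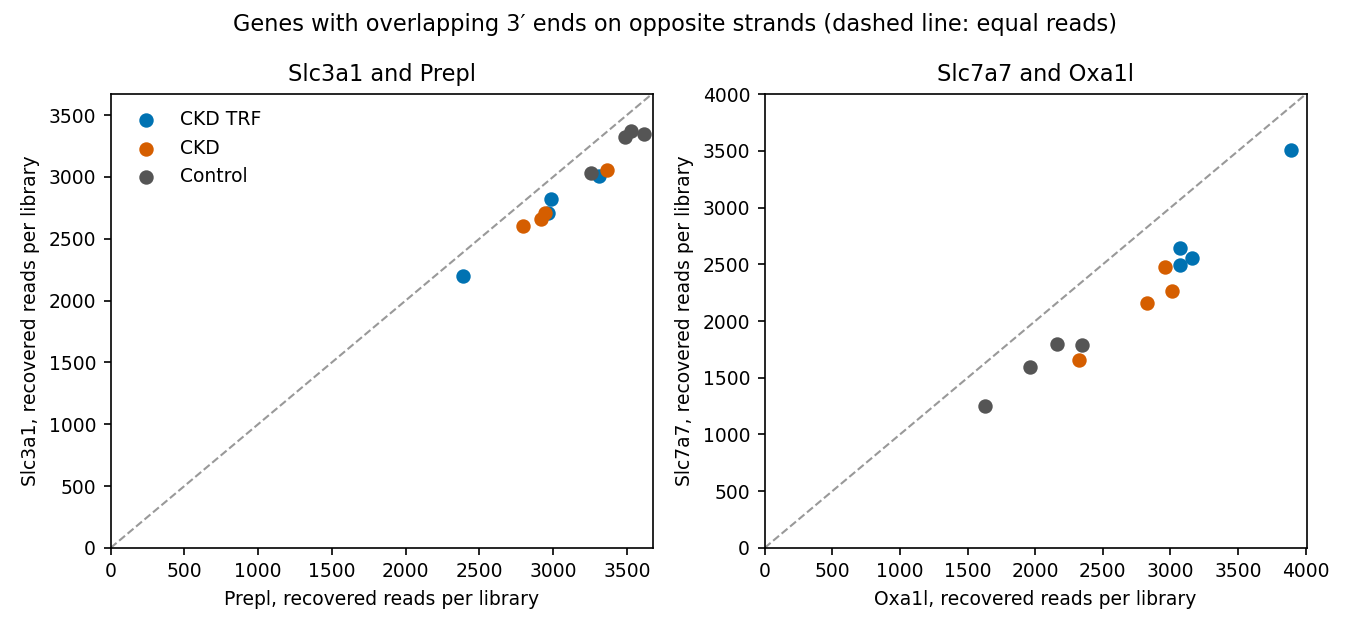
Recovered reads per library of Slc3a1 against Prepl (left) and of Slc7a7 against Oxa1l (right), the genes whose 3′ ends overlap them on the opposite strand; dots are libraries of CKD TRF, CKD and Control and the dashed line marks equal reads. Slc3a1 lies at 90.8% to 95.4% of Prepl in all 12 libraries, and Slc7a7 at 71.2% to 90.1% of Oxa1l.

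Slc7a9, the light chain that exchanges cystine (chr7:35448796-35466036, plus strand), stood at 92.4, 103, 79.2 and 114 scaled reads in CKD TRF libraries, 96.1, 83.0, 98.5 and 104 in CKD and 135, 128, 104 and 121 in Control. The highest CKD library (CKD 4) and Control 3 were level, and CKD TRF 4 lay above Control 3, so the groups touched or overlapped. Slc7a9 fell by 0.35 ± 0.12 in CKD and by 0.33 ± 0.12 in CKD TRF (limma adjusted p = 0.0189 and 0.0287), and both changes turned positive when libraries were centred on proximal tubule markers (0.23 and 0.18). Its CKD call was lost under 8 of 24 alternatives, among them equal library sums (-0.12 ± 0.12, adjusted p = 0.405) and the fits without CKD 2 (-0.28, adjusted p = 0.0759) or Control 1 (-0.30, 0.06), both in limma. The CKD TRF call was lost under 11, among them the fits without CKD TRF 1, CKD TRF 3, Control 1 or Control 2 (limma adjusted p = 0.0674, 0.12, 0.0862 and 0.0589).

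Slc7a13, a light chain of the straight proximal tubule that pairs with Slc3a1 and carries acidic amino acids and cystine (chr4:19818725-19842218, plus strand), had 694, 795, 921 and 705 scaled reads in CKD TRF libraries, 898, 611, 815 and 785 in CKD and 1989.6, 1702, 1994 and 2149 in Control. The highest diseased library (CKD TRF 3) lay far below the lowest Control library (Control 2). Slc7a13 fell by 1.34 ± 0.13 in CKD (limma adjusted p = 7.5e-08) and by 1.33 ± 0.13 in CKD TRF (limma adjusted p = 1.4e-07). These calls held under all 24 alternatives, at changes from -1.44 to -0.76 in CKD and from -1.42 to -0.82 in CKD TRF. Markers of the straight segment S3 were lower too, with 7 of 7 past the threshold in CKD and 6 of 7 in CKD TRF, and a list sum of 2284 to 3408 scaled reads in CKD TRF, 2544 to 2915 in CKD and 4500.2 to 5825 in Control. Markers of the other segments fell as well, 4 of 4 for S2 (median -0.89 in CKD and -0.83 in CKD TRF) and 3 of 5 for S1 (-0.79 and -0.64) in each comparison, beside medians of -0.77 and -0.65 for S3. The part of these segments in the Slc7a13 result was not tested.

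Slc6a18 and Slc6a19 are neighbours on chromosome 13, and both proteins reach the brush border with collectrin, listed in the files under its older symbol Tmem27. Slc6a18, a carrier of neutral amino acids (chr13:73661752-73678023, minus strand), stood at 198, 240.2, 216 and 182 scaled reads in CKD TRF libraries, 233, 175, 193 and 207 in CKD and 327, 332, 339 and 289 in Control. Each diseased library lay below each Control library. Slc6a18 fell by 0.67 ± 0.11 in CKD and by 0.63 ± 0.11 in CKD TRF (limma adjusted p = 3.6e-05 and 0.00012), and the calls ended when libraries were centred on proximal tubule markers (-0.09 and -0.11). In the fit without the 5 libraries over that limit for fat genes, which left CKD TRF 2 as the lone CKD TRF library, the CKD TRF call was lost (-0.42 ± 0.18, limma adjusted p = 0.148).

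Slc6a19, the main sodium-coupled carrier of neutral amino acids (chr13:73679745-73704865, minus strand), was counted at 11.8, 6.96, 11.6 and 18.5 scaled reads in CKD TRF libraries, 6.74, 9.41, 13.5 and 15.0 in CKD and 29.1, 26.7, 26.1 and 27.3 in Control. These levels rest on 105 to 281 reads a library in CKD TRF, 104 to 232 in CKD and 285 to 307 in Control. Control libraries lay within a narrow range, and the diseased libraries were all lower and spread widely. Slc6a19 fell by 1.28 ± 0.23 in CKD and by 1.17 ± 0.23 in CKD TRF (limma adjusted p = 0.000166 and 0.000527), and both calls held under all 24 alternatives. Tmem27 fell by 0.76 ± 0.13 in CKD and by 0.53 ± 0.13 in CKD TRF (limma adjusted p = 8.0e-05 and 0.00285).

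Slc1a1, the brush border carrier of glutamate and aspartate (chr19:28835049-28913960, plus strand), had 131, 149, 153 and 136 scaled reads in CKD TRF libraries, 116, 115, 131 and 129 in CKD and 189, 162, 203 and 185 in Control. The 3 groups formed an order with Control highest and CKD lowest, in which CKD TRF overlapped CKD by 1 library (CKD TRF 1) and did not overlap Control. Slc1a1 fell by 0.58 ± 0.10 in CKD and by 0.37 ± 0.10 in CKD TRF (limma adjusted p = 5.7e-05 and 0.00424). Centring on proximal tubule markers gave a change of -0.0035 in CKD and 0.14 in CKD TRF. 4430402I18Rik, which overlaps its end on the opposite strand, had 71 to 144 reads a library against 1754 to 2562 for Slc1a1. Equal library sums ended the CKD TRF call (-0.23 ± 0.10, limma adjusted p = 0.084).

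Slc3a2, the heavy chain of the basolateral exchangers and of their counterparts in most other cells (chr19:8706882-8723369, minus strand), stood at 192, 188, 224 and 284 scaled reads in CKD TRF libraries, 129, 170.5, 185 and 211 in CKD and 303, 277, 269 and 268 in Control. Every CKD library was lower than every Control library, and CKD TRF 4 lay among the Control libraries. Slc3a2 fell by 0.70 ± 0.14 in CKD (limma adjusted p = 0.000332), a call that ended on centring to proximal tubule markers (-0.12 ± 0.14, adjusted p = 0.445 in limma). Its difference of -0.35 ± 0.14 between CKD TRF and Control stood at the threshold (limma adjusted p = 0.0499) and lost the call under 16 of 24 alternatives, among them each fit without CKD TRF 1, 2 or 3 or without any of the Control libraries (adjusted p from 0.0601 to 0.151 in limma). It turned positive when centred on proximal tubule markers (0.17).

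Slc7a7, the light chain that releases cationic amino acids across the basolateral membrane (chr14:54369442-54417780, minus strand), had 183, 175, 149 and 231 scaled reads in CKD TRF libraries, 107, 121, 131 and 162 in CKD and 163, 115, 152 and 165 in Control. All 3 groups overlapped, and 3 of 4 CKD TRF libraries were above all Control and all CKD libraries. The change of -0.19 ± 0.14 in CKD against Control did not pass (limma adjusted p = 0.291), nor did that of 0.30 ± 0.14 in CKD TRF (limma adjusted p = 0.0974). The CKD TRF difference passed as a rise under 5 alternatives, among them equal library sums (0.45 ± 0.15, limma adjusted p = 0.0245) and the fit without CKD TRF 3 (0.40, 0.042). Slc7a7 shares its 3′ end (chr14:54369442-54369673, 232 bases) with Oxa1l, a mitochondrial insertase gene on the opposite strand, and its reads were 71.2% to 90.1% of those of Oxa1l. Oxa1l stood at -0.14 ± 0.12 in CKD and 0.22 ± 0.12 in CKD TRF against Control, and reads of this pair too cannot be told apart without strand.

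Slc7a8, the basolateral light chain for neutral amino acids (chr14:54722209-54781946, minus strand), was found at 84.8, 109, 89.1 and 151 scaled reads in CKD TRF libraries, 62.4, 84.6, 68.8 and 89.9 in CKD and 107, 91.2, 124 and 135 in Control. CKD libraries all lay below the lowest Control library (Control 2), and CKD TRF spanned both groups, with CKD TRF 4 the highest of all 12. Slc7a8 fell by 0.57 ± 0.16 in CKD (limma adjusted p = 0.00648), and the change was 0.01 when centred on proximal tubule markers. That call was lost with equal library sums (-0.35 ± 0.17, limma adjusted p = 0.104). The difference of -0.10 ± 0.16 between CKD TRF and Control did not pass (limma adjusted p = 0.662, 95% interval -0.43 to 0.24), and it was positive with equal library sums (0.046) and quantile normalization (0.031).

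Slc3a2, Slc7a7 and Slc7a8 are made outside the proximal tubule as well, Slc7a7 in macrophages among others. Markers of macrophages and dendritic cells rose, 14 of 14 in CKD and 14 of 14 in CKD TRF against Control. Their sum was 884 to 1161 scaled reads in CKD TRF, 942 to 1199 in CKD and 261 to 339 in Control. The part of these cells in the 3 basolateral genes was not tested.

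Slc7a12, a carrier of small neutral amino acids that is female-biased in mouse kidney (chr3:14480697-14505830, plus strand), was the 1 gene that rose, with 2.51, 5.90, 1.79 and 4.93 scaled reads in CKD TRF libraries, 3.96, 2.97, 6.15 and 4.39 in CKD and 1.33, 1.47, 2.38 and 2.74 in Control. It is a low gene, counted 30 to 89 times a library in CKD TRF, 53 to 106 in CKD and 13 to 30 in Control. All CKD libraries exceeded all Control libraries, and CKD TRF split into a pair near Control (1 and 3) and a pair at the CKD level (2 and 4). Slc7a12 rose by 0.85 ± 0.28 in CKD (limma adjusted p = 0.019), and the difference of 0.61 ± 0.28 in CKD TRF did not pass (limma adjusted p = 0.0927). The CKD call was lost under quantile normalization (0.49 ± 0.29, limma adjusted p = 0.176) and without CKD 3 (0.70, 0.071) or Control 1 (0.74, 0.0614). It passed in CKD TRF without CKD TRF 3 (0.84 ± 0.28, limma adjusted p = 0.0262). Slc7a13 is known in mouse kidney for the opposite bias, towards males. Of 4 Y-linked genes, Ddx3y rose in CKD (0.35 ± 0.12, limma adjusted p = 0.0204), while Uty stood at 0.19, Kdm5d at -0.08 and Eif2s3y at -0.22. In CKD TRF none of the 4 passed, at 0.23 for Ddx3y, 0.25 for Uty, -0.35 for Kdm5d and -0.25 for Eif2s3y (limma adjusted p from 0.13 to 0.4). All 4 were found in each group. Ddx3y, the highest, averaged 131 scaled reads in CKD TRF, 141 in CKD and 111 in Control, and Kdm5d, the lowest, 8.24, 10.1 and 10.8. Xist, made from the inactive X chromosome of females, was too low to be among the tested genes. The other 5 tested genes of the list of sex-biased kidney genes passed as lower in limma in both diseased groups. Odc1 (-1.56 in CKD and -1.13 in CKD TRF), Slco1a1 (-1.41 and -1.22) and Cyp4b1 (-0.94 and -0.92) are higher in males in mouse kidney. Slc22a7 (-0.94 and -0.74) and Cyp2e1 (-0.86 and -0.97) fell as well, and the list is not split by the direction of the bias. Their part in the Slc7a12 and Slc7a13 results was not tested.

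The comparison of CKD TRF with CKD asked what restricted feeding changes in the diseased kidney. For the cystine and neutral amino acid carriers the difference was small and its 95% interval in limma spanned 0: -0.14 to 0.26 for Slc3a1, -0.23 to 0.26 for Slc7a9, -0.26 to 0.27 for Slc7a13, -0.17 to 0.27 for Slc6a18 and -0.38 to 0.59 for Slc6a19. The basolateral genes stood higher in CKD TRF, Slc7a7 by 0.49 ± 0.14, Slc7a8 by 0.48 ± 0.16 and Slc3a2 by 0.35 ± 0.14 (limma adjusted p = 0.705, 0.705 and 0.719, unadjusted p = 0.0023, 0.0078 and 0.0178). Oxa1l, whose reads cannot be told apart from those of Slc7a7 without strand, also stood higher by 0.35 ± 0.12 (limma adjusted p = 0.705). A rise was not particular to the basolateral genes. The 5 markers of proximal segment S1 stood higher by 0.15 (Slc22a8) to 0.47 (Slc5a2), with a median of 0.33, and 0 passed. Over the 20 proximal tubule markers the median was 0.15, and 0 passed. Slc1a1 differed by 0.21 ± 0.10 (limma adjusted p = 0.774, unadjusted p = 0.0405). Slc7a12 differed by -0.23 ± 0.28 (interval -0.82 to 0.36). None of the 10 genes passed the adjusted threshold under any of the alternatives run, 24 for each gene and 23 for Slc7a12, and a p that misses it does not show that the groups are alike.

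Within a library, the log2 difference between a gene and its partner is nearly free of the scaling of that library, apart from the 1 added before the log, which weighs on low genes. For the cystine exchanger, Slc7a9 minus Slc3a1 was -0.76, -0.86, -1.17 and -0.64 in CKD TRF, -0.86, -0.84, -0.84 and -0.70 in CKD and -1.32, -1.27, -1.44 and -1.19 in Control. The light chain was thus higher relative to the reads counted for its heavy chain in every diseased library than in any Control library, narrowly so in CKD TRF 3, by 0.49 in CKD and 0.45 in CKD TRF. Slc7a13 minus Slc3a1 moved the other way, by -0.50 in CKD and -0.55 in CKD TRF. Slc7a7 minus Slc3a2 was -0.07, -0.10, -0.58 and -0.30 in CKD TRF, -0.27, -0.49, -0.50 and -0.38 in CKD and -0.89, -1.26, -0.82 and -0.70 in Control, higher by 0.51 in CKD and 0.65 in CKD TRF than in Control. These pairs include the genes with overlapping 3′ ends.

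The remaining pairs have no such neighbour. Slc7a12 minus Slc7a13, a pair set together for their opposite sex bias, was -7.63, -6.85, -8.37 and -6.90 in CKD TRF, -7.50, -7.27, -6.83 and -7.19 in CKD and -9.74, -9.43, -9.21 and -9.17 in Control, a shift of 2.19 in CKD and 1.95 in CKD TRF. Slc6a19 minus Tmem27 changed by -0.52 in CKD against Control without overlap, and Slc6a18 minus Slc6a19 was higher by 0.60. In CKD TRF these 2 pairs overlapped Control, at -0.64 and 0.55. Slc7a8 minus Slc3a2 stood at 0.12 in CKD and 0.25 in CKD TRF against Control (exact permutation p = 0.486 and 0.257). Of 21 exact two-sided permutation tests (7 pairs, 3 comparisons), 10 reached p = 0.0286, the smallest that 4 against 4 libraries allow. Their adjusted p was 0.06 (exact permutation test, Benjamini-Hochberg over the 21), so that none passed 0.05. No pair reached 0.0286 between CKD TRF and CKD. With that smallest p and 21 tests, a pair could not pass by itself however far its groups lay apart. The lack of a pass therefore says little about any single pair.

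Within the diseased groups the genes did not all follow 1 library order. CKD TRF 4 and CKD 4 were each the highest of their 4 libraries for the same 5 genes, Slc7a7, Slc7a8, Slc7a9, Slc3a2 and Slc6a19. CKD 1 was the lowest of its group for 4 of these 5, all but Slc7a9, while it held the highest Slc6a18 and Slc7a13 of the CKD libraries. CKD 2 was the lowest of its group for the other 6 genes. Within their groups, 24.3% of all tested genes were highest in CKD TRF 4 and 25.5% in CKD 4. In the CKD group, 27.7% of all tested genes were lowest in CKD 1 and 25.4% in CKD 2. The libraries highest for the 5 genes, CKD TRF 4 and CKD 4, are among the 5 with over 20 scaled reads of the fat genes, at 122 and 369 scaled reads for the 4 fat genes, and CKD 2, at 160.1, is another. CKD TRF 1 and CKD TRF 3 also passed that limit, at 73.5 and 63.6 scaled reads. Among the 10 genes, CKD TRF 1 was the lowest of its group for 4 and the highest for 0. CKD TRF 3 was the lowest for 3 and the highest for 2. The part of fat tissue in the order was not tested.

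Likeness to other genes was measured as the root mean square difference of mean-centred log2 profiles over the 12 libraries, and the 2 nearest of all tested genes are named. For Slc3a1 and Slc7a7 the nearest were the overlapping genes, Prepl at 0.0246 and Oxa1l at 0.0902, and the next were Ush1c at 0.0597 and B3galnt1 at 0.135. Slc6a18 lay nearest to BC021785 (0.0697) and Fah (0.0782), the last an enzyme of tyrosine breakdown. Slc1a1 lay nearest to Idua (0.0643) and Osbpl8 (0.082), and Slc7a9 to Fam169a (0.0824) and Hectd3 (0.0912). Slc7a13 lay nearest to Ggct (0.104), an enzyme of glutathione breakdown, and Slc30a2 (0.131). Slc3a2 was nearest to S100a13 (0.124) and Hagh (0.132), and Slc7a8 to Miox (0.167), an inositol oxygenase of the proximal tubule, and G6pc (0.177), the phosphatase that releases glucose. The low genes lay further from any other gene, with Slc6a19 at 0.218 from Cox17 and 0.241 from Gm6525, and Slc7a12 at 0.233 from Zbtb8a and 0.261 from Snx12.

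The falls were set beside markers of the proximal tubule, none of which is among the 10 genes. Of 20 such markers, 16 fell and 0 rose in CKD, and 15 fell and 0 rose in CKD TRF, with medians of -0.79 and -0.70. Their sum was 17038 to 19759 scaled reads in CKD TRF, 14974 to 17199.7 in CKD and 24560.4 to 30481 in Control. Markers of injured tubule rose, 10 of 10 in both comparisons with Control, and summed to 907 to 1083 scaled reads in CKD TRF, 1095 to 1122 in CKD and 375 to 563 in Control. Markers of urothelium rose as well, 8 of 8 tested in CKD and 7 of 8 in CKD TRF, with sums of 36.5 to 130.4, 30.8 to 162 and 4.19 to 16.0 in CKD TRF, CKD and Control in that order. Their part in the falls was not tested. With each library centred on the median of the proximal tubule markers, Slc7a13 stood at -0.76 ± 0.13 in CKD and -0.82 ± 0.13 in CKD TRF, Slc6a19 at -0.70 ± 0.23 and -0.65 ± 0.23, and Slc3a1 at -0.26 ± 0.11 in both, and all 6 values passed (limma adjusted p from 3.6e-05 to 0.0363). Slc6a18, Slc1a1, Slc7a8, Slc7a9 and Slc3a2 no longer passed in CKD on this scale, and Slc7a7 and Slc7a12 passed as higher (0.39 ± 0.15 and 1.43 ± 0.30, limma adjusted p = 0.0268 and 0.000278). In CKD TRF, Slc7a7, Slc7a8 and Slc7a12 passed as higher on it (0.82, 0.42 and 1.13). Of the 13943 tested genes, 8913 passed as higher and 371 as lower in CKD on this scale, and most passed as higher in CKD TRF too. This centring moved the median of all tested genes by 0.58 in CKD and 0.52 in CKD TRF against Control, and equal library sums moved it by 0.22 and 0.14, as the plot of scalings shows for each gene.

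**Figure D4:**
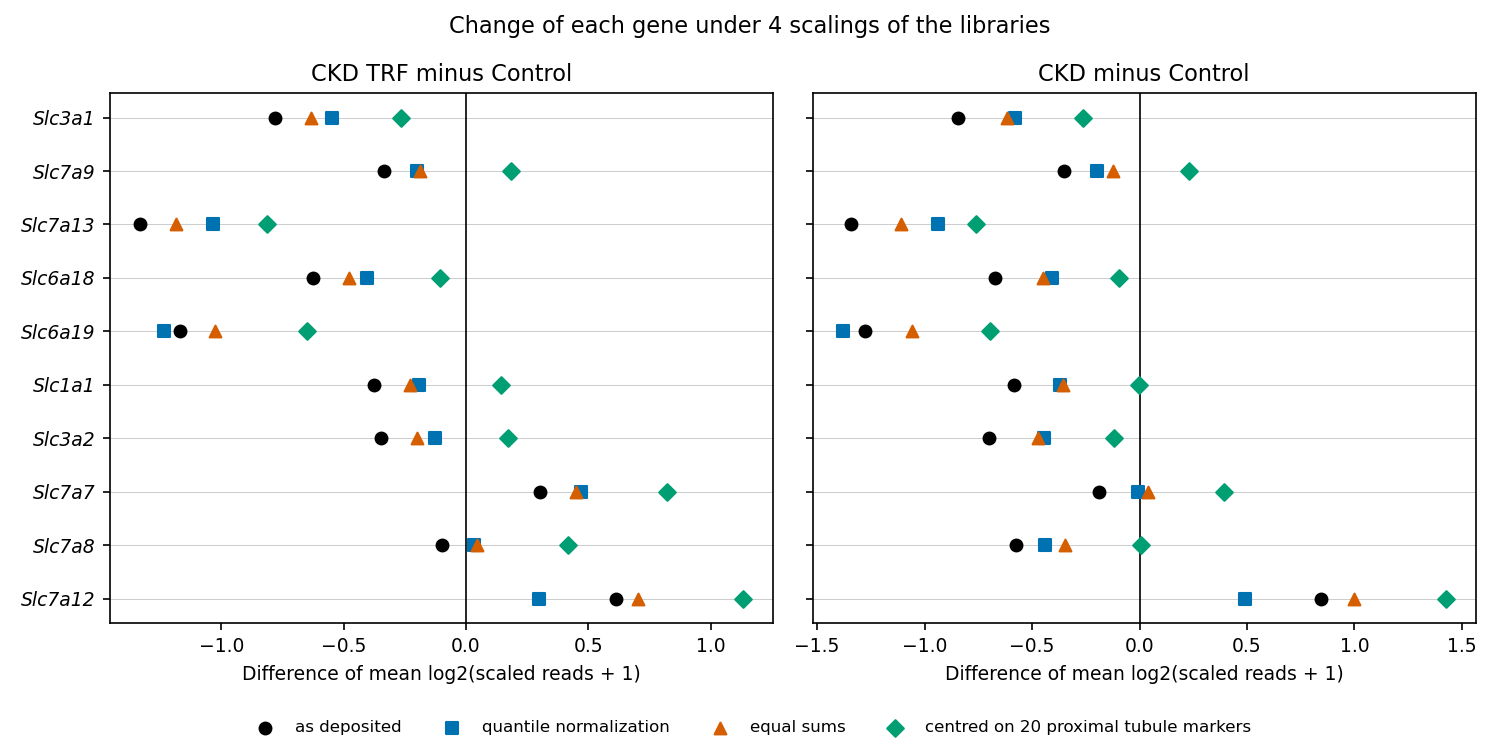
Change of each gene on the log2(scaled reads + 1) scale for CKD TRF minus Control (left) and CKD minus Control (right), as deposited and under 3 other scalings of the libraries; each point is a difference of group means (n = 4 each). Slc3a1, Slc6a19 and Slc7a13 stay left of 0 under all 4 scalings in both panels, Slc7a12 stays right of it, and on centring to proximal tubule markers Slc7a8 and Slc7a9 lie right of 0 in both panels, Slc3a2 and Slc1a1 in the CKD TRF panel and Slc7a7 in the CKD panel. Slc7a8 in the CKD TRF panel and Slc7a7 in the CKD panel also lie right of 0 with equal library sums, as does Slc7a8 in the CKD TRF panel under quantile normalization.

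Other amino acid transporters did not follow the 10 genes as a body. Among 18 tested further genes of the SLC1, SLC7 and SLC38 families, 9 rose and 2 fell in CKD. In CKD TRF 8 rose and 0 fell, and the medians were 0.22 in CKD and 0.34 in CKD TRF. Of all tested genes 23.6% rose and 21.8% fell in CKD, and 19.5% rose and 17.9% fell in CKD TRF. Slc7a2, a cationic amino acid carrier of macrophages and liver, rose by 1.68 ± 0.18 in CKD (limma adjusted p = 3.2e-07). The glutamate carrier Slc1a3 rose by 1.45 ± 0.29, the stress-induced glutamine carrier Slc38a2 by 1.35 ± 0.15 and Slc7a6, the close relative of Slc7a7, by 1.22 ± 0.21 (limma adjusted p = 0.000416, 4.3e-07 and 9.7e-05). In CKD TRF against Control, Slc7a11, the cystine importer of the glutathione supply, rose by 1.26 ± 0.25 (limma adjusted p = 0.00051), beside 0.66 ± 0.25 in CKD. Slc7a11 is a low gene, at a mean of 1.60 scaled reads in CKD TRF, 0.720 in CKD and 0.0849 in Control. The pair that fell in CKD was Slc38a4 at -0.91 ± 0.27 and Slc7a10 at -0.62 ± 0.20 (limma adjusted p = 0.00834 and 0.0167), and both were past the rule's 4 genes and named after their values were seen.

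Of 12 tested carriers of neutral and imino acids and taurine, 2 rose and 4 fell in CKD, and 0 rose and 4 fell in CKD TRF, with medians of -0.12 and -0.18. Slc6a15 fell by 1.52 ± 0.27 in CKD, Slc6a13, a carrier of taurine and GABA, by 0.80 ± 0.13 and Slc6a20b by 0.59 ± 0.10 (limma adjusted p = 0.000148, 4.3e-05 and 6.0e-05). Slc36a2, a proton-coupled carrier of glycine and proline, rose by 1.32 ± 0.38 (limma adjusted p = 0.00801). It is a low gene, at 2.44 ± 2.14 scaled reads in CKD and 0.210 ± 0.355 in Control (mean ± SD). Of 5 tested genes of peptide uptake and lysosomal export, 2 rose and 1 fell in CKD, and 3 rose and 1 fell in CKD TRF. For both of these short lists the shares of all tested genes were 23.6% risen and 21.8% fallen in CKD, and 19.5% and 17.9% in CKD TRF. Slc15a2, the brush border peptide carrier, fell by 0.88 ± 0.14 in CKD, while Slc15a3, a lysosomal carrier of immune cells, rose by 1.24 ± 0.25 and Ctns, the lysosomal cystine exporter, by 0.40 ± 0.13 (limma adjusted p = 5.5e-05, 0.000405 and 0.0182). In CKD TRF, Pqlc2, a lysosomal exporter of cationic amino acids, rose by 0.45 ± 0.15 (limma adjusted p = 0.0247).

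**Figure D5:**
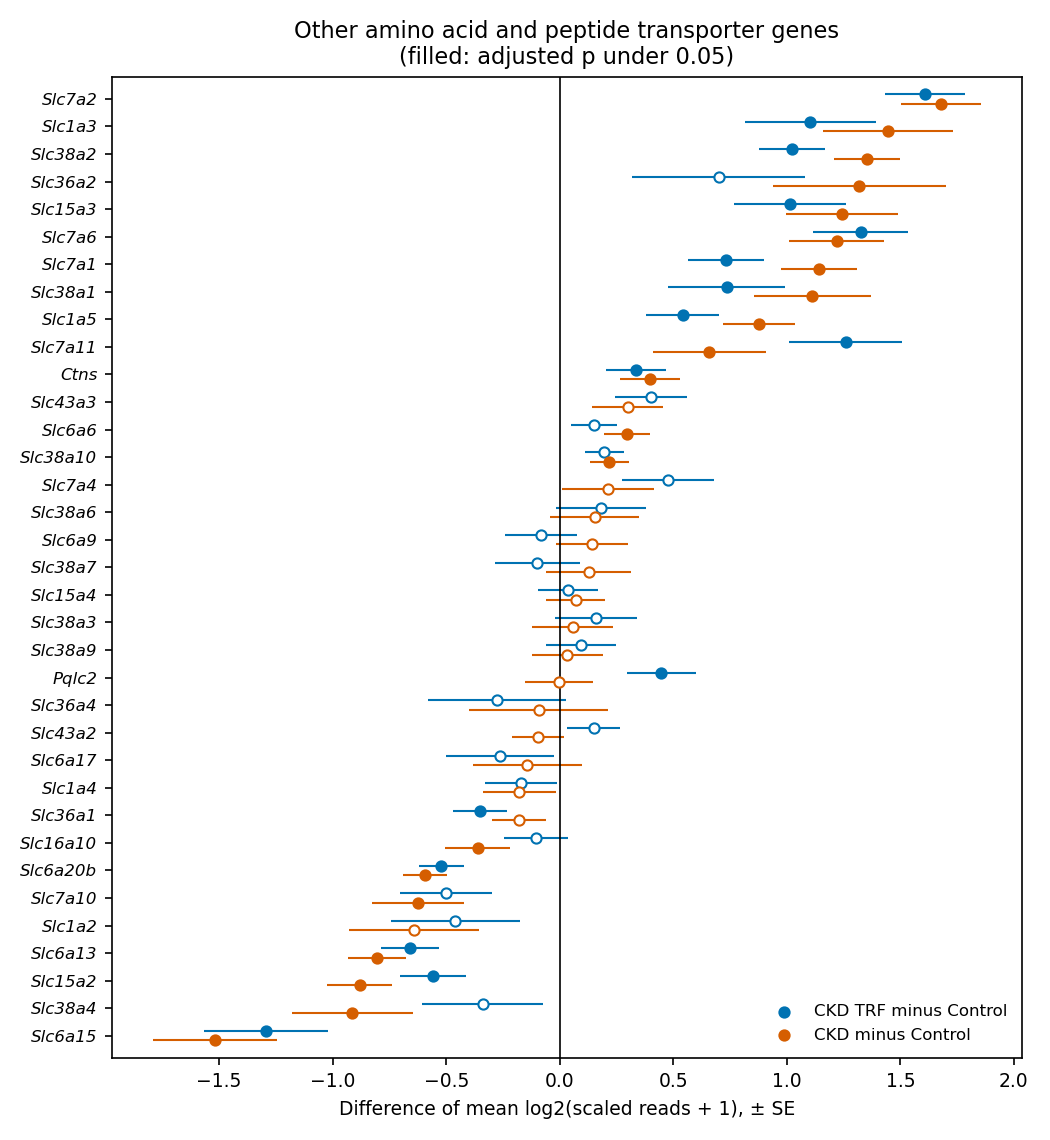
Change of the 35 tested genes of 3 lists of other amino acid and peptide transporters, with the SE from limma (n = 4 per group), for CKD TRF minus Control (above) and CKD minus Control (below) in each line; filled points have an adjusted p under 0.05. Slc7a2 lies highest at 1.61 and 1.68 and Slc6a15 lowest at -1.29 and -1.52.

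The enzymes that free amino acids from peptides at the brush border were also lower in diseased kidneys for the most part. Of 6 tested, 4 fell and 0 rose in CKD, and 4 fell and 0 rose in CKD TRF, against 21.8% and 17.9% of tested genes that fell. Ggt1, which breaks down glutathione, fell by 0.77 ± 0.10 in CKD, the aminopeptidase Anpep by 0.63 ± 0.14, the dipeptidase Dpep1 by 0.63 ± 0.09 and Dpp4 by 0.42 ± 0.13 (limma adjusted p = 6.0e-06, 0.00109, 2.0e-05 and 0.0116). Hnf4a, which is also among the 20 proximal tubule markers, fell by 1.09 ± 0.10 in CKD and by 0.96 ± 0.10 in CKD TRF (limma adjusted p = 2.9e-08 and 2.8e-07). Sgk1, a kinase that raises the activity of several transporters, rose by 1.49 ± 0.16 in CKD and 1.14 ± 0.16 in CKD TRF (limma adjusted p = 5.9e-07 and 2.3e-05).

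Genes of the ATF4 response to amino acid shortage moved in both directions. Of 13 tested, 3 rose and 3 fell in CKD, and 3 rose and 2 fell in CKD TRF, with medians of -0.04 and 0.14. Among all tested genes 23.6% rose and 21.8% fell in CKD, and 19.5% rose and 17.9% fell in CKD TRF. The counts of this list lie near those shares and do not set it apart from other genes. Atf3 rose by 1.57 ± 0.30, Ddit4 by 0.93 ± 0.28 and Cebpb by 0.92 ± 0.21 in CKD, and Psph, an enzyme of serine synthesis, fell by 0.83 ± 0.20 (limma adjusted p = 0.000272, 0.01, 0.00159 and 0.00238). Asns, the asparagine synthetase gene that ATF4 controls, stood at 0.43 ± 0.22 in CKD and 0.16 ± 0.22 in CKD TRF (limma adjusted p = 0.119 and 0.598), and was named after its values were seen. Atf4 itself stood at -0.20 ± 0.10 in CKD (limma adjusted p = 0.0887) and fell by 0.36 ± 0.10 in CKD TRF (limma adjusted p = 0.00532).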

How the data were processed

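Transcripts of 12 mouse kidney libraries, 4 each of CKD TRF, CKD and Control, were sequenced from their 3′ ends (QuantSeq kit of Lexogen) per the labels. The submitters' processing notes name Bowtie2 and bedtools and the genome build mm10, with no role or version. The deposited log2 values were, as read from the values themselves, log2 of a scaled read number plus 1, made by the authors with a factor per library. The scaling method and the strand setting of the counting were not given in the sources used here. Of the values below 20 scaled reads, 98.3% to 100% came within 0.1 of whole reads in each library, and these steps gave the depths of 10989788 to 17209942 reads. Deeper libraries have less counting error, which matters most for Slc7a12 and Slc6a19. Each library held 23282 entries and 23238 symbols; for 35 repeated symbols the entry highest on average was used.

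The 10 genes and all gene lists were chosen with earlier results of these data known. Tested were the 60% of symbols with the highest mean log2 value (13943 genes, mean of at least 0.729), with limma 3.58.1 (R 4.3.3), with 1 mean per group, a prior spread that followed the mean, two-sided tests, Benjamini-Hochberg adjustment over all tested genes and a threshold of 0.05. Planned forms for counts and for linear values were not needed, because the files held log2 values. Simulated data held 13943 genes, with 100 given a log2 change of 0.5, 50 given 1 and 50 given 2 for each comparison. CKD against Control recovered 32% of genes given a log2 change of 0.5, 72% of those given 1 and 100% of those given 2. In CKD TRF against CKD these shares were 24%, 74% and 100%, and in CKD TRF against Control 34%, 76% and 96%. Far fewer genes changed in the simulation than passed in either real comparison with Control, so adjustment was stricter in the simulation than there. Partner differences were tested by exact permutation (scipy 1.17.1, Python 3.11.15). Described were all 10 genes, up to 4 genes with the largest change past the threshold from each list, the partners, and the 2 genes with the nearest profile to each. Some genes of the partner list, their list count and 1 further promoter motif that was searched are not reported here. Positions are from GENCODE M21 on GRCm38, and promoter windows from RefSeq on GRCm38.p6. Alternatives changed the filter, scaling, pseudocount, test, variance model, samples in the fit, replicate block, an adipose covariate, the entry kept and each library in turn. A fit without the 5 libraries with over 20 scaled reads of Adipoq, Plin1, Cidec and Cfd was chosen after seeing the data.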

Additional observations from a re-analysis of the deposited data

Results flagged for a closer look

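In the CKD group, the log2 difference Slc7a9 minus Slc3a1 was -0.705 in CKD 4, against -0.863 to -0.836 in the other 3 CKD libraries. The gap to the next library was 0.8291 of the range of the group, barely over Dixon's critical value for 4 samples. It was the 1 outlier among 51 groups of 4 values examined, and chance flags about 1 in 20 such groups. Slc7a9 was at its highest of the CKD libraries in CKD 4, a library with over 20 scaled reads of fat-restricted genes, and the Slc3a1 value carries the overlap with Prepl; their part in this value was not tested.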

How the results depend on the processing

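Each change was recomputed under 24 alternatives (23 for Slc7a12, which the stricter filter leaves out). The calls of Slc3a1, Slc6a19 and Slc7a13 against Control held in both diseased groups under all of them. The planned limit for fat-rich libraries (over 5 times the highest Control) left out no library and gave no separate value. Without the 5 libraries with over 20 scaled reads of fat-restricted genes, chosen after seeing the data, 4037 genes passed in CKD against Control and 1478 in CKD TRF against Control (6333 and 5225 with all libraries), and 3 of the 10 genes passed in CKD TRF (7 with all). The partner tests could not be run there for CKD TRF, which keeps 1 library, and without 1 library no pair could pass. Under the others 0 pairs passed, but there too no pair could pass by itself. Centred on proximal tubule markers, 5 of the 10 genes passed in CKD (2 higher, 3 lower), beside 9284 of all tested genes (8913 higher, 371 lower). In CKD TRF against Control, 8610 genes passed on this scale (8335 higher, 275 lower). In CKD TRF against CKD, 1 gene passed with no filter and 0 to 1 without 1 library, the 1 being without CKD TRF 1. Between scalings the median of all tested genes in CKD against Control moved by -0.10 with median centring, -0.11 with quantile normalization, 0.22 with equal sums and 0.58 on proximal centring.

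The labels' replicate numbers did not pair libraries: same-number deviations correlated at -0.179 to 0.110 (12 pairs, median -0.0262), other numbers at -0.148 to 0.171. With the replicate block, 6131 genes passed in CKD against Control, 0 in CKD TRF against CKD and 5033 in CKD TRF against Control, with 9, 0 and 7 of the 10 genes.

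Changes that turned sign were these, with the cause not tested. In CKD against Control, Slc7a7 stood at 0.038 with equal sums, 0.39 on proximal centring and 0.039 with voom on recovered reads; on proximal centring Slc7a8 stood at 0.0055 and Slc7a9 at 0.23. In CKD TRF against Control, Slc7a8 stood at 0.031 with quantile normalization, 0.046 with equal sums, 0.42 on proximal centring, 0.046 with voom and -0.27 to 0.0047 without 1 library; on proximal centring Slc7a9 stood at 0.18, Slc3a2 at 0.17 and Slc1a1 at 0.14. In CKD TRF against CKD, where none of the 10 passed, Slc7a9 stood at -0.0035 with quantile normalization, -0.065 with equal sums, -0.046 on proximal centring, -0.067 with voom and -0.065 to 0.11 without 1 library. Slc3a1 stood there at -0.021, -0.0011 and -0.020 with equal sums, proximal centring and voom, and Slc6a18 at -0.031, -0.012 and -0.030, with -0.019 to 0.12 without 1 library. Slc7a13 stood at -0.095 with quantile normalization, -0.074 with equal sums, -0.055 on proximal centring, -0.073 with voom, -0.012 with an adipose covariate and -0.10 to 0.081 without 1 library. Slc6a19 stood at -0.10 to 0.33 without 1 library. Without these 5 libraries with most fat RNA, Slc6a19 stood at -0.41, Slc7a12 at 0.21 and Slc7a13 at -0.11.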
